A study of Mus musculus with 6 samples.

Results

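The 6 genes described here are the core of the interleukin-6 (IL-6) and oncostatin M axis: the cytokine genes Il6, Osm and Lif, the receptor genes Il6ra and Il6st, and the transcription factor gene Stat3. They were chosen by name, with earlier results of these data known. All 6 were found among the 29097 genes of the deposited table, each on 1 row. Expression was measured by Smart-seq2, a full-length RNA sequencing method without molecular identifiers, in CD45+CD11b+Ly6G+ neutrophils sorted from peripheral blood (PB). The 3 Ctrl libraries came from unligated mice and the 3 LIP libraries (named Lig in the labels) from mice with ligature-induced periodontitis, in which silk ligatures had been tied around the second molars of both jaws for 14 d. All mice were 8-week-old male wild-type C57BL/6 animals, and each library was a pool of neutrophils from 5 mice, so the values are averages over animals and their spread is that between pools. The comparison asks how the messages of this cytokine axis in circulating neutrophils differed after experimental periodontitis.

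Cytokines of the IL-6 family signal through receptor complexes that share gp130, the product of Il6st. IL-6 first binds its specific receptor, encoded by Il6ra, either on the cell surface or as a soluble form released from leukocytes, whereas oncostatin M and leukemia inhibitory factor (LIF) bind gp130 together with a second chain, OSMR or LIFR. Bound gp130 activates JAK kinases, which phosphorylate STAT3, and STAT3 induces its own inhibitor SOCS3. Neutrophils are known as a source of oncostatin M and of soluble IL-6 receptor.

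The messages of the 6 genes differ in AU-rich elements, the sequences through which many cytokine messages are rapidly degraded. The pentamer ATTTA was counted in the 3′ UTR of the GENCODE vM21 protein-coding transcript with the longest coding sequence of each gene, and the 30-base window with the most copies is shown for 4 of the genes, because it lets the ligand messages be set beside that of Il6ra, the receptor message with the fewest copies. Capitals mark each ATTTA, and all 4 windows lie within 1 exon of the 3′ UTR in GRCm38.
Osm, chr11:4240939-4240968, + strand: aatccgttttatATTTAtaaggcctATTTA
Il6, chr5:30019677-30019706, + strand: tttaattatttttaATTTAttgataATTTA
Lif, chr11:4272414-4272443, + strand: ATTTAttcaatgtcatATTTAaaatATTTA
Il6ra, chr3:89869345-89869374, - strand: gtagcaaaactgctgtgaaagggaaATTTA
The 3′ UTR of Osm held 6 copies in 1017 bases, that of Il6 held 6 in 427 bases, and that of Lif held 7 in 3180 bases. The receptor and transducer messages were sparser, with 1 copy in 1837 bases for Il6ra, 2 in 1895 for Stat3 and 9 in 5641 for Il6st. Among the 8513 genes that were both expressed here and annotated with a 3′ UTR, 4.75% had at least as many copies per kilobase as Osm and 0.446% as many as Il6. Lif, at 31.0%, was nearer to Il6st (41.7%), Stat3 (52.5%) and Il6ra (61.8%), the sparsest of the 6. The stability of these messages was not measured.

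Sequence ahead of the transcription start was given by RefSeq (GRCm38.p6) for 5 of the 6 genes and not for Osm. In the 250 bases before the start, searched on both strands, the STAT motif TTCNNNGAA was in none of the 5 promoters, against 7.02% of 32851 promoters, and the cyclic-AMP response element TGACGTCA was likewise in none, against 1.55%. The AP-1 motif TGANTCA, shown in capitals, was present in 6.75% of all promoters. Of the axis genes, this motif was found in the promoters of Il6 and Lif, the only cytokine genes searched.
Il6, chr5:30012864-30012882, + strand: cTGAGTCActtttaaagaa
Lif, chr11:4257329-4257357, + strand: ccagtcagctgTGACTCAggccatagtgg
Its first base lies 249 bases before the start of Il6 and 228 bases before that of Lif, counted from the RefSeq starts, which for Lif is not the start given in the deposited table. These are matches of letters, and binding was not measured.

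The libraries held between 52186555 and 57262379 counted reads. The labelled cell type was checked against 24 mature neutrophil genes, led by S100a9 and S100a8, which were all expressed in every library and summed to 17877–21423 FPKM (fragments per kilobase of gene length, scaled to the library total) in Ctrl and 57120–62264 FPKM in LIP. Messages of other cells moved with the groups as well. The 12 B cell genes, led by Cd74 and Ighm, summed to 10624–11540 FPKM in Ctrl and 1776–1791 FPKM in LIP, and the 13 T cell genes, led by Cd8b1 and Lck, to 256–277 and 40.8–56.0 FPKM. The 9 listed erythroid genes, led by Hba-a1 and Hba-a2, summed to 180732–186950 FPKM in Ctrl and 19500–20210 FPKM in LIP. In contrast, the 12 monocyte genes, led by Nr4a1 and Cd68, rose from 568–620 to 871–919 FPKM, and the 10 platelet genes, led by Ppbp and Pf4, from 870–1101 to 1811–2128 FPKM, although no gene of these last lists was called higher when libraries were scaled to the neutrophil genes. In each of these 6 lists every gene tested passed the test in the direction named. The 8 NK cell genes, led by Nkg7 and Gzma, summed to 510–598 FPKM in Ctrl and 438–480 FPKM in LIP, with 2 called higher, and of 6 tested eosinophil and basophil genes, led by Siglecf and Ccr3, 1 was higher and 1 lower. No listed marker was at 0 in all libraries. In pooled RNA, fewer cells of a type and less RNA per cell cannot be told apart.

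The axis genes spanned more than 2 orders of magnitude in FPKM, a scale that corrects for gene length. In both groups the order of the mean levels was Osm, Stat3, Il6ra, Il6, Il6st and Lif. Il6 and Il6st overlapped in both groups, and their order is therefore not beyond the spread between libraries, whereas every other neighbouring pair was separated. In LIP, Osm ranked among the abundant messages of these cells, with 191 of the 10440 tested genes at a higher mean FPKM.

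**Figure D1:**
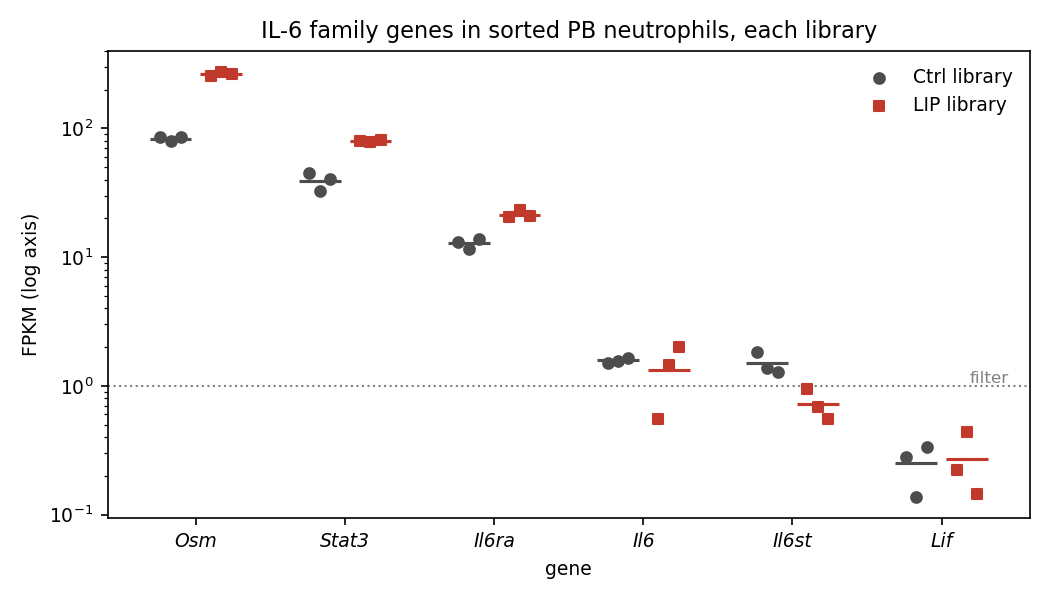
FPKM (log axis) of the 6 axis genes in each Ctrl library (circles) and LIP library (squares), with group means as horizontal lines and the filter at a mean of 1 FPKM dotted. Osm, Stat3 and Il6ra lie higher in all 3 LIP libraries than in any Ctrl library, Il6st lies lower, and the groups overlap for Il6 and Lif.

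The comparison of LIP with Ctrl was tested by edgeR's quasi-likelihood test on the counts, scaled between libraries by TMM (trimmed mean of M values), for the 10440 genes with a mean of at least 1 FPKM. At an adjusted p below 0.05, 53.6% of these genes were called, with 26.5% higher and 27.2% lower in LIP, so that a call by itself sets a gene little apart here. Of the 5 axis genes tested, 3 were called higher and 1 lower, and the same 4 genes did not overlap between the groups in scaled counts, as was the case for 63.4% of all genes tested, 30.3% higher and 33.1% lower in LIP. Over all genes tested, the log2 fold change had a median of -0.09.

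Osm, encoding oncostatin M (ENSMUSG00000058755, chr11:4236420-4241026), was the most abundant gene of the axis and, with TMM scaling, the most changed. Relative to neutrophil genes its log2 fold change was 0.43, a smaller change than that of Il6st, as described further on. Its FPKM was 85.3, 79.5 and 85.3 in the Ctrl libraries and 253, 274 and 266 in the LIP libraries, from 10652–11121 and 34160–37986 counts. All 3 LIP libraries lay about equally far above all 3 Ctrl libraries. The log2 fold change was 1.97 ± 0.09 (SE, n = 3 per group), a 3.93-fold higher level, with an adjusted p of 1.4e-07 (edgeR), and 1.92% of all genes tested had a higher log2 fold change. The FPKM means, 83.4 ± 3.35 and 264 ± 10.4 (SD), give a smaller ratio because FPKM is scaled to the library total. TMM also allows for genes, such as the haemoglobins, that took a larger share of the Ctrl reads. How much single genes contributed to the difference was not tested.

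The other cytokine genes were expressed at low levels. Il6 (ENSMUSG00000025746, chr5:30013114-30019981) was at 1.51, 1.56 and 1.66 FPKM in Ctrl and 0.55, 1.44 and 2.0 FPKM in LIP. In FPKM, LIP replicates 1 and 2 thus lay below the narrow Ctrl range and LIP replicate 3 above it. In TMM-scaled counts LIP replicate 2 lay above that range as well. Raw counts of Il6 ran from 83 in the lowest library to 276 in the highest. Its log2 fold change was 0.06 ± 0.46 (SE, edgeR, adjusted p = 0.92), with a 95% interval from -0.96 to 1.09 that spans a 0.51-fold to a 2.12-fold level. The sign of this value turned with the scaling and without LIP replicate 3, where it was -0.35, so no direction is given for Il6.

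Lif (ENSMUSG00000034394, chr11:4257557-4272514), which lies 16530 bases downstream of Osm on the same strand, was below the filter. Its FPKM was 0.28, 0.14 and 0.33 in Ctrl and 0.22, 0.44 and 0.14 in LIP, from 36–117 counts per library, and the groups overlapped. In the fit without a filter its log2 fold change was 0.44 ± 0.75 (SE, edgeR, adjusted p = 0.73), with a 95% interval from -1.30 to 2.17, and no direction is given for Lif. The neighbouring Osm gene, in the same libraries, differed between the groups by far more than its spread.

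Among the receptor genes, the IL-6-specific chain rose and the shared chain fell with TMM scaling, whereas both were lower relative to neutrophil genes, as described further on. Il6ra (ENSMUSG00000027947, chr3:89864059-89913196) was at 13.05, 11.7 and 13.7 FPKM in Ctrl and 20.4, 23.1 and 20.7 FPKM in LIP. Every LIP library was above every Ctrl library, and the log2 fold change was 1.05 ± 0.11 (SE, edgeR, adjusted p = 2.4e-05). The first 281 bases of the gene overlap the antisense gene Gm42809, which had 78–184 counts per library against 5942–12168 for Il6ra. Whether strand was used in counting is not given in the sources used here.

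Il6st (ENSMUSG00000021756, chr13:112464070-112510086), encoding gp130, was at 1.83, 1.37 and 1.29 FPKM in Ctrl and 0.94, 0.68 and 0.55 FPKM in LIP. The highest LIP library was below the lowest Ctrl library. The log2 fold change was -0.73 ± 0.28 (SE, edgeR, adjusted p = 0.046), with a 95% interval from -1.35 to -0.11. This call stood close to the threshold and was lost without Ctrl replicate 1, 2 or 3 or LIP replicate 2 or 3, with adjusted p of 0.16, 0.083, 0.066, 0.10 and 0.14 and log2 fold changes from -0.57 to -0.83, while without LIP replicate 1 it was -0.97 and kept. The B cell and T cell messages fell in the same libraries, by a median log2 fold change of -2.45 and -2.39, and their part in the Il6st value was not tested.

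A ratio of the receptor chains within a library does not depend on how libraries are scaled, but it can depend on the mix of cells. The part of the B cell and T cell messages in it was not tested, and Il6st averaged only 0.73 FPKM in LIP. The Il6ra FPKM was 7.13, 8.49 and 10.7 times that of Il6st in the Ctrl libraries and 21.7, 33.8 and 37.5 times in the LIP libraries. All LIP ratios were above all Ctrl ratios. The log2 ratio was higher by 1.80 in LIP, from 3.11 ± 0.29 to 4.91 ± 0.42 (SD, n = 3), with p = 0.1 in a two-sided exact permutation test, the smallest p that 3 against 3 libraries allow.

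**Figure D2:**
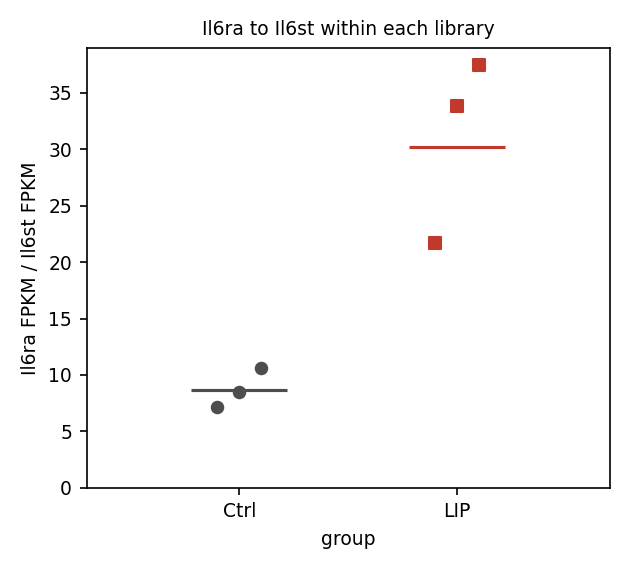
Ratio of Il6ra to Il6st FPKM in each Ctrl library (circles) and LIP library (squares), on a linear axis from 0, with geometric means as lines. The 3 LIP ratios, from 21.7 to 37.5, lie above the 3 Ctrl ratios, from 7.13 to 10.7.

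Stat3 (ENSMUSG00000004040, chr11:100885098-100939540) was the second most abundant gene of the axis. Its FPKM was 44.8, 32.3 and 40.5 in Ctrl and 80.3, 78.9 and 80.8 in LIP. The LIP libraries were nearly alike, the Ctrl libraries varied more, and the groups were well apart, with a log2 fold change of 1.34 ± 0.11 (SE, edgeR, adjusted p = 4.6e-06). The locus shares 72 bases at its end with that of Stat5a on the other strand, which had 912–1619 counts against 18163–46429 for Stat3.

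The direction of several axis genes depended on what the libraries were scaled to. The libraries were also scaled so that the 24 mature neutrophil genes, themselves higher in LIP by a median log2 of 1.65, kept their geometric mean level. The median over all genes then moved to -1.63 on the log2 scale. Single genes of the 24 still ranged from -1.15 for Camp to 0.97 for Mmp8, with S100a8 and S100a9 at 0.41 and 0.49. Osm remained higher on that scale, with a log2 fold change of 0.43 ± 0.09 (SE, edgeR, adjusted p = 0.0010), but Il6ra turned lower, at -0.49 ± 0.11 (SE, adjusted p = 0.0016), and Stat3 was at -0.20 ± 0.12 (SE, adjusted p = 0.13). Il6st was lower by more, at -2.27 (adjusted p = 3.7e-05), and Il6 was called lower, at -1.48 (adjusted p = 0.012). With library totals, Osm, Stat3 and Il6ra were higher (1.64, 1.01 and 0.72 on the log2 scale) and Il6st lower (-1.06). Of the calls over all genes, 49.4% were higher with TMM, 31.2% with library totals and 1.92% with the neutrophil genes. The last scaling gave 169 genes called higher and 8635 lower. Under TMM, the increase of Osm exceeded that of all but 6 of the 24 neutrophil genes, whereas 16 of them rose more than Stat3 and 18 more than Il6ra.

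**Figure D3:**
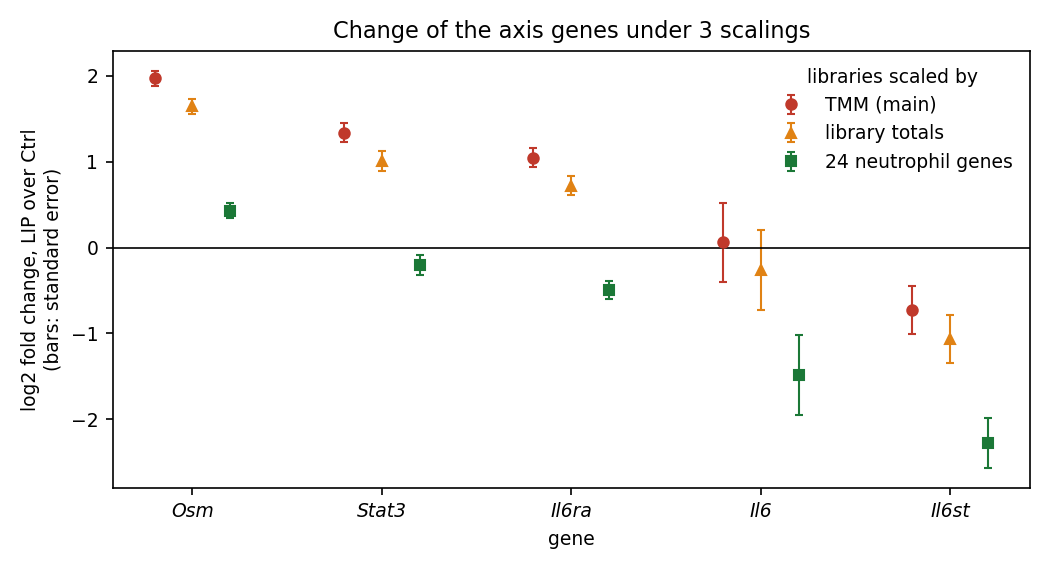
Log2 fold change, LIP over Ctrl, of the 5 tested axis genes with libraries scaled by TMM (circles), by library totals (triangles) or by 24 mature neutrophil genes (squares), with bars for the standard error. Osm stays above 0 under all 3, Stat3 and Il6ra fall below 0 when scaled to the neutrophil genes, and Il6st stays below 0 under all 3.

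The genes whose profiles over the 6 libraries were most like those of the axis genes were sought among 3384 other genes with a mean of at least 10 FPKM, by the root mean square difference of centred log2(FPKM + 1) values. Closest to Osm were Cd244a, Ifitm6 and Gda, at differences of 0.036, 0.039 and 0.046. For Stat3 these were Cd226, Arrdc4 and Hgsnat (0.043, 0.053 and 0.053), and for Il6ra they were Btg2, Gpr137b-ps and Pde4b (0.035, 0.042 and 0.049). The low genes had looser matches, which were Get4, Srsf3 and H2-T22 for Il6st (0.077, 0.081 and 0.092) and Sdf2, Dnaja2 and 2810013P06Rik for Il6 (0.087, 0.11 and 0.11). The matches of Il6st changed less than it did under TMM (log2 fold changes of -0.27, -0.29 and -0.20), since adding 1 to FPKM values near 1 compresses its differences. Each of the 3 genes closest to Il6 was, like it, lowest in LIP replicate 1, which follows from their choice by likeness over these same libraries.

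Of the other ligands of the family, 3 passed the filter. Ebi3, the subunit that joins the Il27 product to form IL-27, was the most abundant of them, at 41.6, 50.01 and 53.9 FPKM in Ctrl and 121, 122 and 115 FPKM in LIP (log2 fold change 1.60 ± 0.13, SE, edgeR, adjusted p = 4.0e-06). Its partner Il27 was low and scattered, at 1.91, 2.56 and 2.20 FPKM in Ctrl and 0.64, 1.61 and 4.80 FPKM in LIP, and did not pass the test (0.38 ± 0.62, SE, adjusted p = 0.62). Clcf1, a cytokine that signals through the CNTF receptor, fell from 4.34, 5.05 and 4.31 FPKM to 1.74, 0.67 and 1.08 FPKM (log2 fold change -1.66 ± 0.35, SE, adjusted p = 0.0025). The other 4 genes considered, Il11, Cntf, Ctf1 and Il31, were below the filter and did not exceed 0.92 FPKM in any library.

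The receptor chains that oncostatin M and LIF need beside gp130 were scarce. Osmr, the second chain of the oncostatin M receptor, was at 0 in 4 libraries and had 26 and 16 counts in the other 2, at most 0.037 FPKM. Lifr was at 0.40–0.79 FPKM in Ctrl and 0.51–0.59 FPKM in LIP, Il11ra1 at 0.38–1.10 and 0.23–0.71 FPKM, and Il31ra at 0.30–0.49 and 0.15–0.76 FPKM, all below the filter. Cntfr was not in the table. Il27ra, which pairs with gp130 to bind IL-27, was the only other chain tested and fell from 12.6, 9.52 and 11.9 FPKM to 0.59, 1.63 and 1.27 FPKM (log2 fold change -2.97 ± 0.34, SE, edgeR, adjusted p = 4.1e-05). The ligand subunit Ebi3 and this receptor chain thus changed in opposite directions with TMM scaling (Ebi3 was at 0.06, adjusted p = 0.65, relative to the neutrophil genes), in libraries whose summed B cell and T cell messages were also lower in LIP, and the part of those cells in the Il27ra value was not tested.

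Of 10 genes for kinases, adaptors and STAT5 proteins that carry the gp130 signal, 8 were tested, 4 were called higher and 0 lower, against 53.6% of all genes tested called in either direction, so the count is near the background. Their median change on the log2 scale was 0.46 against -0.09 for all genes tested. The largest changes were those of Stat5b, at 0.85 ± 0.11 (SE, edgeR, adjusted p = 9.9e-05), and of the adaptor gene Grb2, at 0.64 ± 0.10 (SE, adjusted p = 4.1e-04), followed by that of the kinase gene Jak1, at 0.50 ± 0.15 (SE, adjusted p = 0.019). All these estimates were below that of Stat3. This count depended on the setting, with 2 called higher without Ctrl replicate 3 or LIP replicate 3, and 2 called higher and 1 lower with library totals. With the neutrophil gene scaling 0 were higher and 8 lower, and 8635 of the 10440 genes tested were likewise called lower.

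Inhibitors of the pathway were divided. All 7 were tested, of which 3 were called higher and 1 lower, a share near the 53.6% called over all genes tested, and their median change was 0.51 on the log2 scale. Socs3, the feedback inhibitor that binds gp130, rose from 52.2, 41.5 and 51.5 FPKM to 142, 126 and 146 FPKM (log2 fold change 1.82 ± 0.12, SE, edgeR, adjusted p = 8.5e-07). The phosphatase gene Ptprc, encoding CD45, rose by 1.18 ± 0.14 (SE, adjusted p = 4.7e-05). In contrast, Socs1, which restrains JAK kinases, fell from 17.1, 16.3 and 15.2 FPKM to 8.65, 7.83 and 10.3 FPKM (log2 fold change -0.55 ± 0.16, SE, adjusted p = 0.015), a call lost without LIP replicate 2. With the neutrophil gene scaling none of the 7 was called higher and 6 were called lower, against 169 and 8635 of the 10440 genes tested. Socs3 was at 0.28 on that scale (edgeR, adjusted p = 0.053).

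Of the genes that release the IL-6 receptor from the cell surface, neither protease passed the test. Adam10 had a log2 fold change of 0.06 ± 0.26 (SE, edgeR, adjusted p = 0.85) and Adam17 of 0.36 ± 0.21 (SE, adjusted p = 0.17). Rhbdf2, a carrier that ADAM17 needs to mature, was higher in LIP with TMM scaling, at 6.88, 6.13 and 7.41 FPKM in Ctrl and 11.5, 10.2 and 14.8 FPKM in LIP (log2 fold change 1.15 ± 0.16, SE, adjusted p = 2.0e-04). When scaled to the neutrophil genes, Rhbdf2 was at -0.39 (edgeR, adjusted p = 0.058), so its direction turned and its call was lost. Adam10 and Adam17 were called lower on that scale, at -1.47 and -1.18, as were 8635 of the 10440 genes tested. Rhbdf1, the other carrier, was below the filter at 0.95–1.59 FPKM in Ctrl and 0–0.13 FPKM in LIP.

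Genes known as targets of STAT3 were higher in LIP with TMM scaling, but mostly not relative to the neutrophil genes. Of 20 listed genes 16 passed the filter, and all 16 were called higher, against 26.5% of all genes tested. Their median log2 fold change was 1.42. The list was chosen with earlier results of these data known, so this count describes the listed genes and is not a test. Steap4, a metalloreductase, was at 35.3, 16.2 and 25.4 FPKM in Ctrl and 132, 148 and 131 FPKM in LIP (log2 fold change 2.73 ± 0.23, SE, edgeR, adjusted p = 4.3e-06). Lrg1, a secreted glycoprotein, was at 667, 730 and 642 FPKM in Ctrl and 3455, 3516 and 3451 FPKM in LIP (2.66 ± 0.08, SE, adjusted p = 1.4e-08). The transcription factor gene Cebpd came next (1.83 ± 0.09, SE, adjusted p = 2.5e-07), and Icam1 had the smallest change of the 16, at 0.40 ± 0.13 (SE, adjusted p = 0.023). Ccnd1, Birc5, Timp1 and Osmr did not pass the filter. These genes also answer to other signals and many are neutrophil genes. With the neutrophil gene scaling 3 of the 16, Steap4, Lrg1 and Cebpd, were called higher, 3 were called lower, and the median was -0.12. Of the 10440 genes tested, 169 were called higher and 8635 lower on that scale, with a median of -1.63. The phosphorylation of STAT3 was not measured.

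**Figure D4:**
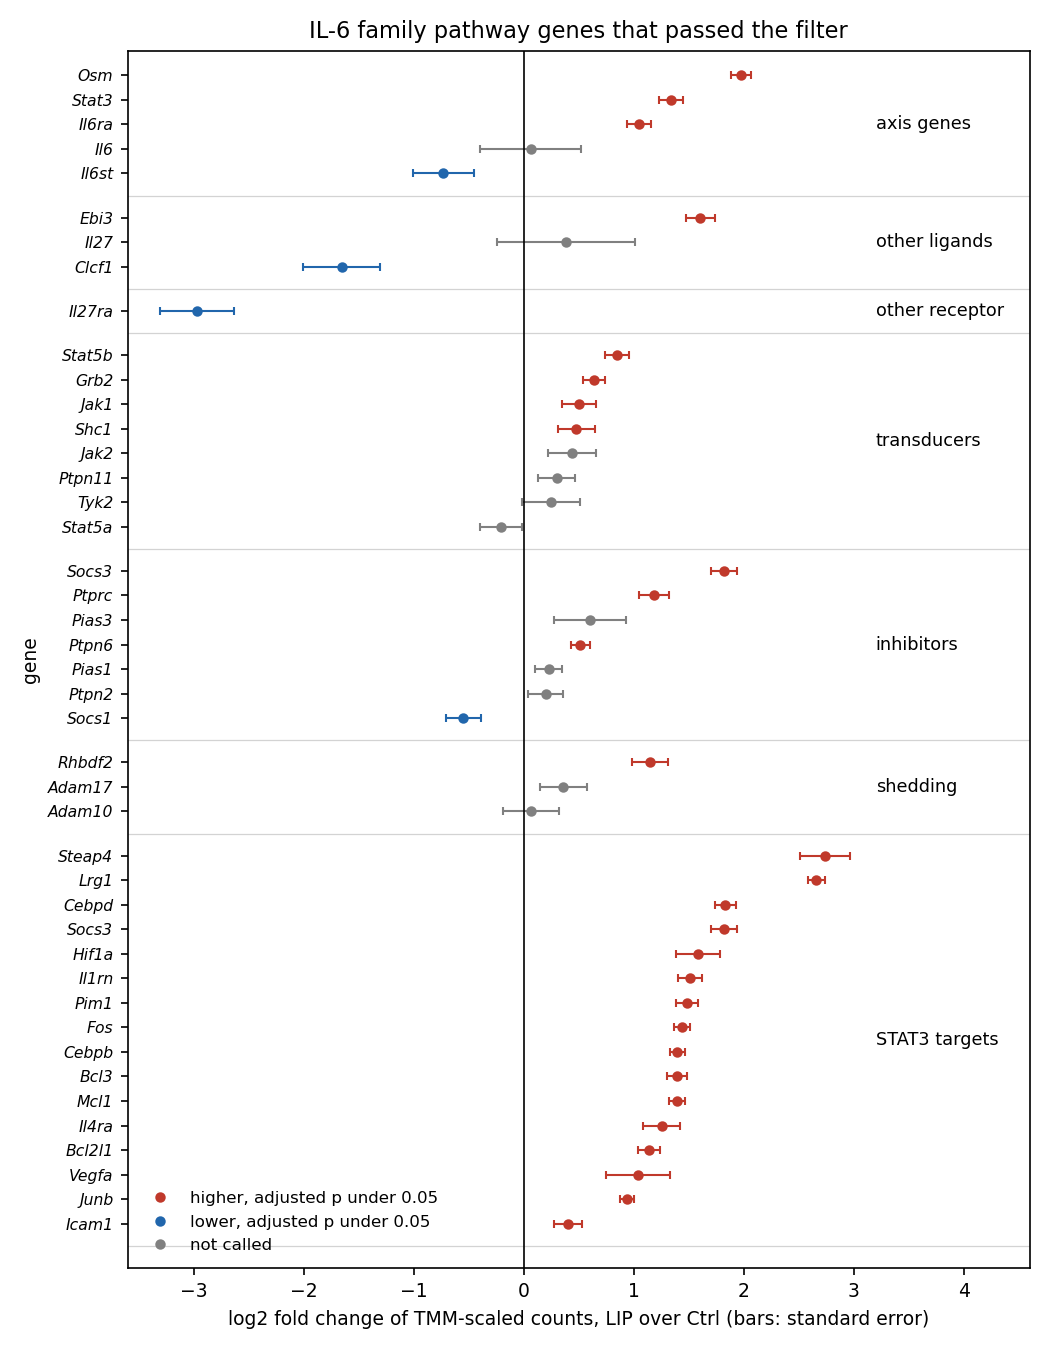
Log2 fold change, LIP over Ctrl (TMM-scaled counts, edgeR), of the axis and pathway genes reported here that passed the filter, with bars for the standard error and colours for calls at an adjusted p below 0.05. All 16 STAT3 targets, Osm, Stat3, Il6ra and Socs3 (shown in 2 groups) lie above 0, and Il27ra, Clcf1, Il6st and Socs1 are the genes called lower. Scaled to the neutrophil genes, Stat3 and Il6ra fell below 0. On that scale 3 of the 16 targets were called lower, against 8635 of the 10440 genes tested.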

How the data were processed

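The authors deposited a table of 29097 genes with raw read counts, not normalized, and FPKM values for 6 Smart-seq2 libraries of PB neutrophils (3 Ctrl, 3 LIP). The submitters' processing notes name cutadapt 1.9, FastQC and GRCm38. The aligner, the counter and the use of strand are not given in the sources used here. Groups and replicate numbers were taken from the labels. Where a name occurred on several rows (50 names, no axis gene), the more highly expressed row was kept.

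Genes that averaged 1 FPKM or more entered the test on counts, made with edgeR 4.0.16 (R 4.3.3; TMM factors, quasi-likelihood test, Benjamini-Hochberg adjustment over all genes tested), after a test of the scripts on simulated data. Alternatives used library totals, median-of-ratios factors, factors from 24 neutrophil genes, DESeq2 1.42.0, and limma 3.58.1 on log2(FPKM + 1) or log2(FPKM + 0.1). Further alternatives left out the haemoglobin genes, used other filters or a replicate block, or left out each library in turn. Total counts were 52186555–57262379 per library, and intervals and spreads cover these pools only. The axis genes, pathway lists and marker lists were chosen with earlier results of these data known. The text names the axis genes, the other ligands and receptor chains, up to 3 called genes with the largest absolute log2 fold change of each pathway list, the 2 most abundant genes of each marker list, the 3 closest profiles of each tested axis gene, and overlapping genes. Genes named beyond this rule (Adam10, Adam17, Rhbdf1, Icam1 and the STAT3 targets below the filter) were chosen after their values were seen. Some list genes and a comparison that used 1 of them are not reported here.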

Additional observations from a re-analysis of the deposited data

How the results depend on the processing

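Osm kept its direction and its call in all 16 alternatives run, with log2 fold changes from 0.43 to 2.01. Stat3 and Il6ra did so in 15 of 16, the exception being the scaling on neutrophil genes (-0.20 and -0.49). Il6st was lower in all 15 it entered, but its adjusted p exceeded 0.05 with median-of-ratios factors (-0.69), without a filter (-0.70) and in 5 of 6 fits without a library (the 6 ran from -0.97, the fit that kept the call, to -0.57). Il6 changed sign with library totals (-0.26), neutrophil gene scaling (-1.48), limma (-0.20 with a pseudocount of 1, -0.38 with 0.1) and the replicate block (-0.10), and ranged from -0.35 to 0.43 without 1 library. Genes called numbered 5601, against 8804 with neutrophil gene scaling, 3666 at a mean FPKM of at least 5 (fewer genes tested) and 4674–5385 without 1 library. Of the gp130 transducers, 2 were higher and 1 lower with library totals, 1 and 1 with limma at either pseudocount, 2 higher with no filter or at 5 FPKM, 0 higher and 8 lower with neutrophil gene scaling, and 2–5 higher without 1 library. With neutrophil gene scaling 169 of all genes tested were called higher and 8635 lower. On that scale the inhibitors gave 0 higher and 6 lower, the shedding genes 0 and 2, and the STAT3 targets 3 and 3. The other ligands gave 0 higher there, and at 5 FPKM 0 other ligands were lower, since Clcf1 did not pass that filter. Without 1 library 0–1 inhibitors were lower and 1–2 shedding genes higher. The cause of the other shifts was not tested. The Il6ra to Il6st ratio kept its direction without each library and on counts.

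Same-numbered Ctrl and LIP libraries came from different mice, and their deviations correlated at 0.02, 0.06 and 0.04, so the numbers were not taken as pairs. With the replicate number as a block 5546 genes were called, and no call of an axis gene changed. Il6 and Lif, the genes with the fewest counts (83–276 and 36–117 per library), had the largest standard errors of the axis.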
